A study of Saccharomyces cerevisiae with 12 samples.

Results

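Yeast cells that had lost Snf5, a core subunit of the SWI/SNF chromatin remodelling complex, were compared directly with cells that had lost Snf2, the ATPase of the same complex. The comparison takes 6 of the 12 libraries of the study, 3 from each deletion, across all 5935 genes of the deposited expression table. The snf5 deletion strain carries snf5delta_::kanMX4 and the snf2 deletion strain carries snf2delta_::kanMX4. Both are BY4741 strains of mating type a, labelled his3delta_1, leu2delta_0, met15delta_0 and ura3delta_0, and in both the SNF6 gene is labelled as FLAG-tagged with a linked LEU2 marker. The remaining 6 libraries are a swp82 deletion (swp82delta_::kanMX4, with the same tag on SNF6) and a wild type whose FLAG tag and LEU2 marker are on SNF2 in place of SNF6. They share the spread estimate of the fit and give the levels beside which the 2 deletions are set. The cultures were independent triplicates in log phase at 30 °C, at an OD600 of about 0.75 to 1.0, and polyadenylated RNA was sequenced by strand. A deletion group rests on 1 strain genotype, and the labels do not say how many transformants were used.

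SWI/SNF uses ATP to slide and evict nucleosomes, and in budding yeast it is known for opening promoters of genes for sucrose use, mating-type switching, stress defence and amino acid synthesis. Snf2 supplies the motor, while Snf5 belongs to the part of the complex that holds the nucleosome and meets transcription activators. The title of the study concerns an aberrant complex that forms when Snf5 is lost. The direct comparison asks at which genes loss of Snf5 differed from loss of the ATPase.

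Values are scaled CPM, read counts set relative to the library's total and a scaling factor. Fold changes are log2 differences, snf5 deletion minus snf2 deletion, on the log2(value + 1) scale, given ± SE, and a gene is called where its limma adjusted p is under 0.05. Depth was 10137756, 10317349 and 10677939 reads in the snf5 deletion and 11375192, 10027008 and 10424910 reads in the snf2 deletion, so 1 read was worth at most 0.0944 scaled CPM in these libraries. The snf5 libraries were less alike than the snf2 libraries. Replicates 1 and 3 of the snf5 deletion differed by a chi-square of 80.9 per degree of freedom across genes, against 5.75 to 12.4 for the pairs of snf2 libraries. In a bulk culture, fewer cells expressing a gene and less RNA per cell cannot be told apart.

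The deleted genes matched the labels. SNF5 (YBR289W, chromosome II, 779667 to 782384 in assembly R64) had 0, 0.183 and 0 scaled CPM in the snf5 deletion, against 109, 92.8 and 96.3 in the snf2 deletion. The 2 reads in the snf5 deletion were 0.0624% of the snf2 deletion's level (0.00756 to 0.225%, an exact 95% interval that covers counting error only). On chromosome XV (855147 to 860258), SNF2 (YOR290C) had 157, 162 and 141 scaled CPM in the snf5 deletion, against 0.493, 0.742 and 0.712 in the snf2 deletion, where its 22 reads were 0.421% of the snf5 deletion's level (0.264 to 0.637%). LEU2 (YCL018W, chromosome III, 91324 to 92418), the isopropylmalate dehydrogenase gene of leucine synthesis, had 78.6, 56.9 and 88.5 scaled CPM in the snf5 deletion and 0 reads in each snf2 deletion library. It was at least 849-fold higher in the snf5 deletion, by a floor of 3 reads over the snf2 group. Both strains are labelled with LEU2, so the snf2 libraries go against that label, and LEU2 status cannot be told apart from the deletion in any gene below.

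None of the remaining subunit genes differed by much. Of 12 SWI/SNF genes, the 2 called other than SNF5 and SNF2 themselves were SNF6, lower by 0.26 ± 0.08 on the log2 scale (limma adjusted p = 0.0483), and TAF14, higher by 0.17 ± 0.04 (limma adjusted p = 0.0275). Either call was lost without any 1 of 5 of the 6 libraries: SNF6 kept it without replicate 1 and TAF14 without replicate 3 of the snf5 deletion. SWI1, SWI3, SNF12, SWP82, SNF11, ARP7, ARP9 and RTT102 had log2 differences from -0.13 to 0.16 and were not called.

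In all, 726 of 5820 genes tested were called between the deletions (12.5%), 337 of them higher in the snf5 deletion (5.79%) and 389 lower (6.68%). Most differences were small: 107 higher and 54 lower calls were under 0.25 on the log2 scale, and a further 183 and 200 were under 0.5. Only 10 genes were called at least 2-fold higher (0.172%), and 45 were called at least 2-fold lower (0.773%). The 3 libraries of the deletions did not overlap at 943 genes with the snf5 deletion higher (16.2%) and 934 with it lower (16%). Scaling by total counts alone gave 246 higher and 545 lower calls. The number of calls fell to 226 when the spread was taken from the 6 libraries alone. Without 1 library it was lowest, 322, without replicate 1 of the snf2 deletion, then 348 and 374 without replicates 2 and 3 of the snf2 deletion and 482 without replicate 2 of the snf5 deletion, and 269 genes kept their call without any 1 of the 6 libraries, 43 of them at least 2-fold different.

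**Figure D1:**
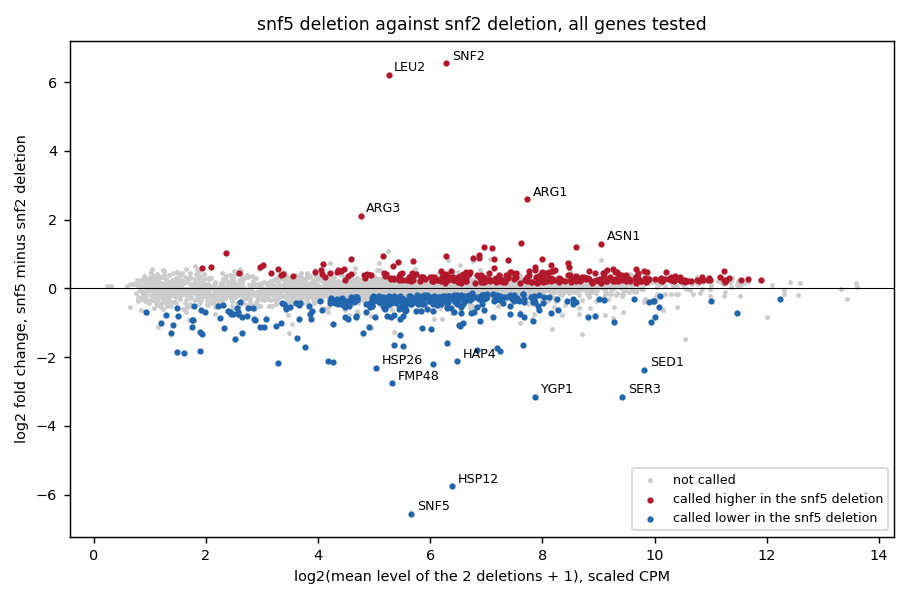
Difference between the deletions for every gene tested: the vertical axis is the log2 fold change, snf5 minus snf2 deletion, and the horizontal axis is the log2 of the mean level of both deletions. Red points were called higher and blue points lower in the snf5 deletion, grey points were not called. Beyond the deleted genes and LEU2, the largest differences are lower ones, led by HSP12 at -5.76, and ARG1 is the highest at 2.60.

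Msn2 and Msn4 switch on genes of the environmental stress response through a short promoter element when growth conditions worsen. Of 35 such genes 9 were called lower in the snf5 deletion, 7 of them at least 2-fold. Over all genes 6.68% were called lower and 0.773% at least 2-fold lower. HSP12 (YFL014W, chromosome VI, 107256 to 107585), a small membrane-protecting stress protein, had 2.45, 2.66 and 1.21 scaled CPM in the snf5 deletion, against 175, 161 and 154 in the snf2 deletion. The snf5 libraries also lay below the wild type, which averaged 75.2 ± 52.8 (SD, n = 3). The difference between the snf5 and snf2 deletions was -5.76 ± 0.52 (limma adjusted p = 0.000124). HSP12 was not called between the snf2 deletion and the wild type (1.31, limma adjusted p = 0.0842). A low HSP12 level was not particular to the snf5 deletion: the swp82 deletion had 14.5, 24.7 and 4.81 scaled CPM.

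YGP1, a secreted glycoprotein gene, had 74.3, 40.6 and 30.4 scaled CPM in the snf5 deletion, against 488, 359 and 400 in the snf2 deletion (-3.16 ± 0.31, limma adjusted p = 0.000232). HSP26, a small chaperone that binds unfolded proteins, had 15.7, 9.17 and 6.41 scaled CPM in the snf5 deletion, against 66.3, 43.0 and 50.1 in the snf2 deletion (-2.31 ± 0.41, limma adjusted p = 0.00665). CTT1, the cytosolic catalase, had 27.3, 17.0 and 13.6 scaled CPM in the snf5 deletion, against 70.1, 57.0 and 54.8 in the snf2 deletion (-1.65 ± 0.22, limma adjusted p = 0.00136). In each of these 3 genes replicate 1 was the highest and replicate 3 the lowest of the snf5 libraries. DDR2, a small stress protein gene (-2.18 ± 0.38), HOR7 (-1.64 ± 0.39), the wall protein gene SPI1 (-1.12 ± 0.22), SSA3, an inducible Hsp70 (-0.38 ± 0.07), and MSN4 itself (-0.77 ± 0.07) completed the 9 called of 35 stress genes. HOR7 was not called in 5 of the 6 fits that left out 1 library, all but the fit without replicate 1 of the snf5 deletion. MSN2, the partner of MSN4, did not differ beyond its error (0.04, limma adjusted p = 0.837). In the swp82 deletion HSP26 averaged 13.3 and DDR2 1.28 scaled CPM, beside 10.4 and 2.74 in the snf5 deletion. YGP1 averaged 294 in the swp82 deletion, above the 48.4 of the snf5 deletion.

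None of the 35 stress genes was called higher, and their median was -0.47 beside -0.0006 for all genes tested. The summed level of the list was 7050, 3257 and 1795 scaled CPM in the snf5 deletion, against 6251, 4467 and 5283 in the snf2 deletion. The sums overlapped: replicate 1 of the snf5 deletion had the highest sum of all 12 libraries and replicate 3 the lowest. The swp82 deletion had sums of 3395, 2116 and 2086, and the wild type 5582, 3927 and 3851. Within each group replicate 1 had the highest sum, and what sets replicate 1 apart was not tested. Without that snf5 library 16 members were called lower, and without replicate 2 of the snf5 deletion 8 were.

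The promoters of 3 of these genes are shown because they carry the stress response element, and the capitals mark each AGGGG, read here on the opposite strand as CCCCT. The sequences are RefSeq's, assembly R64, 5′ to 3′ on the gene's strand, from 300 to 101 bases before the start codon.
HSP12, chrVI:106956-107155, plus strand: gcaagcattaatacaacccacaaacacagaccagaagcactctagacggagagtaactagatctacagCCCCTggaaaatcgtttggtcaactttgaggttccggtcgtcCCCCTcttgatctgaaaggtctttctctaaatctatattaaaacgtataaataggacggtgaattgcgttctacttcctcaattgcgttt
CTT1, chrVII:654334-654533, plus strand: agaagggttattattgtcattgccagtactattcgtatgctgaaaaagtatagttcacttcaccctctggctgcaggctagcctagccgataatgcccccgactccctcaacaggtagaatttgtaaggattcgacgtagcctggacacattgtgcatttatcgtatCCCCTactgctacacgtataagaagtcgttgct
DDR2, chrXV:231856-232055, minus strand: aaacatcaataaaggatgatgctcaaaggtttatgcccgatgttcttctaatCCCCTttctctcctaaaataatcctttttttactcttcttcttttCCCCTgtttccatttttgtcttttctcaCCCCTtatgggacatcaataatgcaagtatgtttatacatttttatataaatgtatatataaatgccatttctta
Matches began 232 and 190 bases before the start codon in HSP12, 133 in CTT1, and 248, 203 and 175 in DDR2. AGGGG occurred on either strand within 300 bases of the start codon in 24 of the 35 stress genes and in 22.4% of 5623 genes with such a window. It occurred in 12 of the 45 genes called at least 2-fold lower (26.7%), in 21.5% of all genes called lower and in 13.7% of those called higher. These matches describe letters only.

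**Figure D2:**
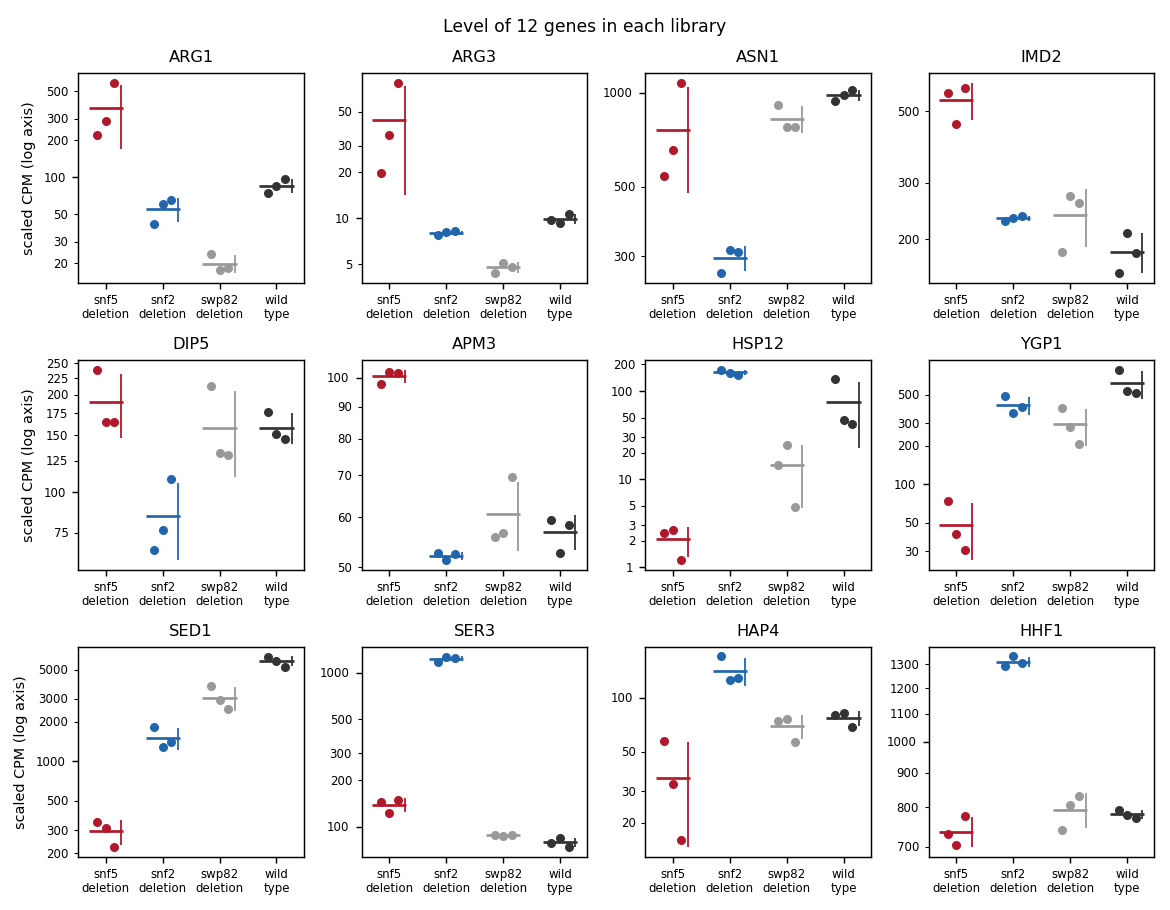
Level of 12 genes in each library, in scaled CPM on a log axis, with 3 points per group, a horizontal bar at the mean and a vertical bar of 1 SD. The groups are the snf5, snf2 and swp82 deletions and the wild type. All of these genes but APM3 and HHF1 were chosen by a rule that required no overlap between the snf5 and snf2 libraries. Levels range from HSP12 at 2.45, 2.66 and 1.21 against 175, 161 and 154 to HHF1 at 730, 703 and 777 against 1291, 1336 and 1306.

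Several genes lower in the snf5 deletion than in the snf2 deletion had a still lower level in the wild type. SER3 (YER081W, chromosome V, 322686 to 324095), the phosphoglycerate dehydrogenase of serine synthesis, had 144, 122 and 149 scaled CPM in the snf5 deletion, against 1180, 1264 and 1252 in the snf2 deletion and 79.2 ± 5.44 in the wild type (SD, n = 3). The libraries of each deletion were close together, and the difference was -3.15 ± 0.08 (limma adjusted p = 3.58e-10). SER3 was called higher than the wild type in both deletions, by 0.80 and 3.94 on the log2 scale in the snf5 and snf2 deletions. The annotation places SRG1 over the same stretch, and reads of either transcript may have been counted as SER3. FMP48, a putative protein kinase gene, had 13.97, 6.14 and 8.54 scaled CPM in the snf5 deletion, against 87.9, 57.2 and 60.2 in the snf2 deletion and 5.78 on average in the wild type (-2.76 ± 0.31, limma adjusted p = 0.000587). PDC6, a minor pyruvate decarboxylase gene, was lower by 1.43 ± 0.22, with means of 5.68 scaled CPM in the snf5 deletion, 17.0 in the snf2 deletion and 1.27 in the wild type.

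Other genes at least 2-fold lower held a level in the snf5 deletion below that of every other group. SED1 (YDR077W, chromosome IV, 600793 to 601809), an abundant structural protein of the cell wall, had 347, 312 and 223 scaled CPM in the snf5 deletion, against 1820, 1292 and 1404 in the snf2 deletion (-2.36 ± 0.19, limma adjusted p = 5.66e-05). The wild type averaged 5789.9, so the snf2 libraries lay between the snf5 libraries and the wild type. ICS2, a gene of unknown function, had 35.2, 34.4 and 35.1 scaled CPM in the snf5 deletion, against 74.1, 80.3 and 80.4 in the snf2 deletion (-1.14 ± 0.08, limma adjusted p = 1.73e-05), and 56.7 on average in the wild type. ECL1 was lower by 1.67 ± 0.17 and PTR2, the di- and tripeptide transporter gene, by 1.60 ± 0.18. ZEO1 had 36.9, 43.8 and 34.3 scaled CPM in the snf5 deletion, against 76.0, 95.1 and 94.6 in the snf2 deletion (-1.19 ± 0.11, limma adjusted p = 0.000124), both far below the wild type's 912. LSO1 had 0.377, 0.0917 and 0.186 scaled CPM in the snf5 deletion, against 4.03, 3.34 and 2.85 in the snf2 deletion, a difference of -1.85 ± 0.20 that the pseudocount shrinks at so low a level. ICS2, ECL1, PTR2 and ZEO1 lie outside the rule for named genes and were chosen after their values were seen.

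Structural cell wall genes were called in both directions and wall remodelling genes only lower. Of 21 structural wall proteins 6 were called lower and 2 higher, with a median of 0.04. Of 21 genes of glucan, chitin and wall remodelling 7 were called lower and 0 higher, with a median of -0.11. Over all genes 6.68% were called lower and 5.79% higher. Beside SED1, YGP1 and SPI1, the wall list held CWP1, a mannoprotein gene (-1.73 ± 0.36, limma adjusted p = 0.0119), and PST1 (-0.72 ± 0.15). MNN1, the mannosyltransferase that caps wall mannan, had 31.9, 34.4 and 31.1 scaled CPM in the snf5 deletion, against 55.9, 61.4 and 54.6 in the snf2 deletion (-0.80 ± 0.06, limma adjusted p = 5.66e-05). The glucanase EXG1 was lower by 0.30 ± 0.07 and the glucan synthesis gene KRE6 by 0.32 ± 0.08. The higher structural calls numbered at most 1 in any fit without 1 library. They were 0 without replicate 2 of the snf2 deletion and 0 with the spread of the 6 libraries alone. Without replicate 1 of the snf2 deletion the lower calls were 3 in the structural and 1 in the remodelling list, and CWP1, PST1, EXG1 and KRE6 were not among them. EXG1 was also lost without replicate 3 of the snf5 deletion or replicate 2 of the snf2 deletion, and KRE6 without replicate 2 or 3 of the snf5 deletion, while MNN1 was called in all 17 alternatives.

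Single genes of glucose metabolism differed between the deletions. Of 17 glycolysis genes 2 were called higher and 3 lower. HXK2, the main hexokinase in glucose, had 2719, 2560 and 3220 scaled CPM in the snf5 deletion, against 1870, 1974 and 2060 in the snf2 deletion (0.52 ± 0.08, limma adjusted p = 0.00307), and PGI1, phosphoglucose isomerase, was higher by 0.46 ± 0.06. TDH1, a glyceraldehyde-phosphate dehydrogenase gene, was lower by 1.81 ± 0.35 and its relative TDH2 by 0.72 ± 0.15, though these copies can share reads. ENO1 was lower by 0.97 ± 0.27, a call lost without replicates 2 or 3 of the snf5 deletion or any 1 snf2 library. HXT4, a hexose transporter gene, had 75.4, 44.4 and 36.4 scaled CPM in the snf5 deletion, against 180, 180 and 166 in the snf2 deletion (-1.80 ± 0.24, limma adjusted p = 0.00145). Among 20 transporters and sensors HXT4 was the 1 called lower, and MTH1, a repressor of such transporter genes, was the 1 called higher (0.42 ± 0.08), close to the shares over all genes (5.79% higher and 6.68% lower). Without replicate 1 of the snf5 deletion 4 were called higher and 2 lower. Of 16 genes for sucrose, maltose and galactose use 4 were higher and 1 lower, with the maltose permease gene MAL31 at 0.45 ± 0.08. The 15 genes of gluconeogenesis and the glyoxylate cycle gave 0 calls with limma and a median of -0.22. By edgeR and by DESeq2 1 was called, and 6 had an unadjusted limma p under 0.05, with the smallest at ADH2 (-0.50, limma adjusted p = 0.0716).

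Among respiratory genes the calls ran in 1 direction, lower in the snf5 deletion. HAP4 (YKL109W, chromosome XI, 232227 to 233891), the regulatory subunit of the activator of respiratory genes, had 57.6, 33.1 and 16.0 scaled CPM in the snf5 deletion, against 170, 126 and 128 in the snf2 deletion. The difference was -2.12 ± 0.34 (limma adjusted p = 0.00382), and the wild type lay between the deletions at 77.2 on average. Of 37 genes of the respiratory chain and ATP synthase 17 were called lower (6.68% over all genes) and 0 higher, with a median of -0.34. Set against the wild type, their median was 0.04 in the snf5 deletion and 0.34 in the snf2 deletion, 2 comparisons that share the wild-type libraries. QCR6, a subunit of the cytochrome bc1 complex, had 230, 225 and 190 scaled CPM in the snf5 deletion, against 396, 344 and 326 in the snf2 deletion (-0.72 ± 0.10, limma adjusted p = 0.00155). The ATP synthase genes ATP5, ATP3 and ATP7 were lower by 0.38 to 0.41 on the log2 scale. NDE1, the external NADH dehydrogenase, had 145, 148 and 168 scaled CPM in the snf5 deletion, against 336, 279 and 277 in the snf2 deletion (-0.95 ± 0.09, limma adjusted p = 0.000172), but the wild type stood near the snf2 deletion at 322. INH1, the inhibitor of ATP synthase, outside the rule and chosen after its values were seen, was lower by 1.31 ± 0.36 in a call lost without replicates 2 or 3 of the snf5 deletion or any 1 snf2 library.

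Of 73 mitochondrial ribosomal protein genes 17 were called lower and 0 higher, with a median of -0.13. MNP1 had 124, 119 and 123 scaled CPM in the snf5 deletion, against 165, 151 and 156 in the snf2 deletion (-0.37 ± 0.05, limma adjusted p = 0.0018). RPM2, the protein part of mitochondrial RNase P, chosen after its values were seen, was lower by 1.06 ± 0.17. The number of respiratory chain genes called lower was 6 without replicate 1 of the snf2 deletion and 26 without replicate 1 of the snf5 deletion, and for mitochondrial ribosomal proteins it was 7 and 19. With the spread of the 6 libraries alone the counts were 4 and 5. In the tricarboxylic acid cycle, ACO1, aconitase (-0.99 ± 0.27), and PYC1, a pyruvate carboxylase gene (-0.84 ± 0.25), were called lower and PYC2, its paralogue, higher (0.36 ± 0.07), of 18 genes. Over all genes 5.79% were called higher and 6.68% lower. The calls of ACO1 and PYC1 were lost in 5 of the fits without 1 library, all but that without replicate 1 of the snf5 deletion. Without that library 9 of the 18 were called lower, and 0 were without replicate 2 of the snf5 deletion.

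Of 10 histone genes 5 were called lower and 1 higher in the snf5 deletion, beside 6.68% lower and 5.79% higher over all genes. HHF1, one of the histone H4 genes, had 730, 703 and 777 scaled CPM in the snf5 deletion, against 1291, 1336 and 1306 in the snf2 deletion and 782 on average in the wild type (-0.83 ± 0.06, limma adjusted p = 1.5e-05). HHT1, its H3 neighbour, had 849, 839 and 945 scaled CPM in the snf5 deletion, against 1275, 1274 and 1289 in the snf2 deletion and 844 on average in the wild type (-0.55 ± 0.07, limma adjusted p = 0.000831). In both genes the snf5 libraries were near the wild type and apart from the snf2 libraries. HHF2, HHT2 and HTB2 were lower by 0.40, 0.36 and 0.36, which completes the 5 called lower. HTZ1, the variant H2A.Z, was called higher (0.32 ± 0.07), a call lost without replicate 2 or 3 of the snf2 deletion. HTA1, HTA2 and HTB1 had log2 differences from -0.27 to -0.19 and were not called. Reads of the paired H3 and H4 genes are uncertain where copies are alike. The summed histone level was 6658 to 7168 scaled CPM in the snf5 deletion and 9008 to 9286 in the snf2 deletion, with no overlap.

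Genes of other chromatin complexes were called in both directions. In RSC, the close relative of SWI/SNF, the ATPase gene STH1 had 247, 262 and 274 scaled CPM in the snf5 deletion, against 208, 209 and 211 in the snf2 deletion (0.32 ± 0.05, limma adjusted p = 0.00287). RSC58 had 61.1, 64.01 and 72.5 scaled CPM in the snf5 deletion, against 97.1, 97.9 and 99.3 in the snf2 deletion (-0.57 ± 0.08, limma adjusted p = 0.00155), with 92.3 on average in the wild type. RSC30, a DNA-binding subunit, was lower by 0.39 ± 0.06 and LDB7 higher by 0.27 ± 0.06, which makes 2 higher and 2 lower of 14. LDB7 lost its call without replicate 1 or 2 of the snf2 deletion. Of 31 genes of ISWI, CHD1, INO80 and SWR1 complexes, BDF1 and HTZ1 were higher and IES4, INO80 and SWR1 lower, with the largest of these log2 differences at 0.32 in size. INO80 kept its call only without replicate 3 of the snf5 deletion, and SWR1 only without replicate 1 of the snf5 deletion or replicate 3 of the snf2 deletion, among the fits without 1 library. SPT8, a TBP-binding subunit of SAGA, was the 1 called of 18 SAGA and Mediator genes (-0.31 ± 0.06). The counts for these 31 remodeler genes and for SAGA and Mediator were close to the shares over all genes (5.79% higher and 6.68% lower). Of 7 silencing factors, SIR1 (-0.28 ± 0.06) and the deacetylase gene SIR2 (-0.46 ± 0.12) were lower. SIR1 lost its call without replicate 1 or 2 of the snf2 deletion, and SIR2 without replicate 2 of the snf5 deletion or any 1 snf2 library.

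**Figure D3:**
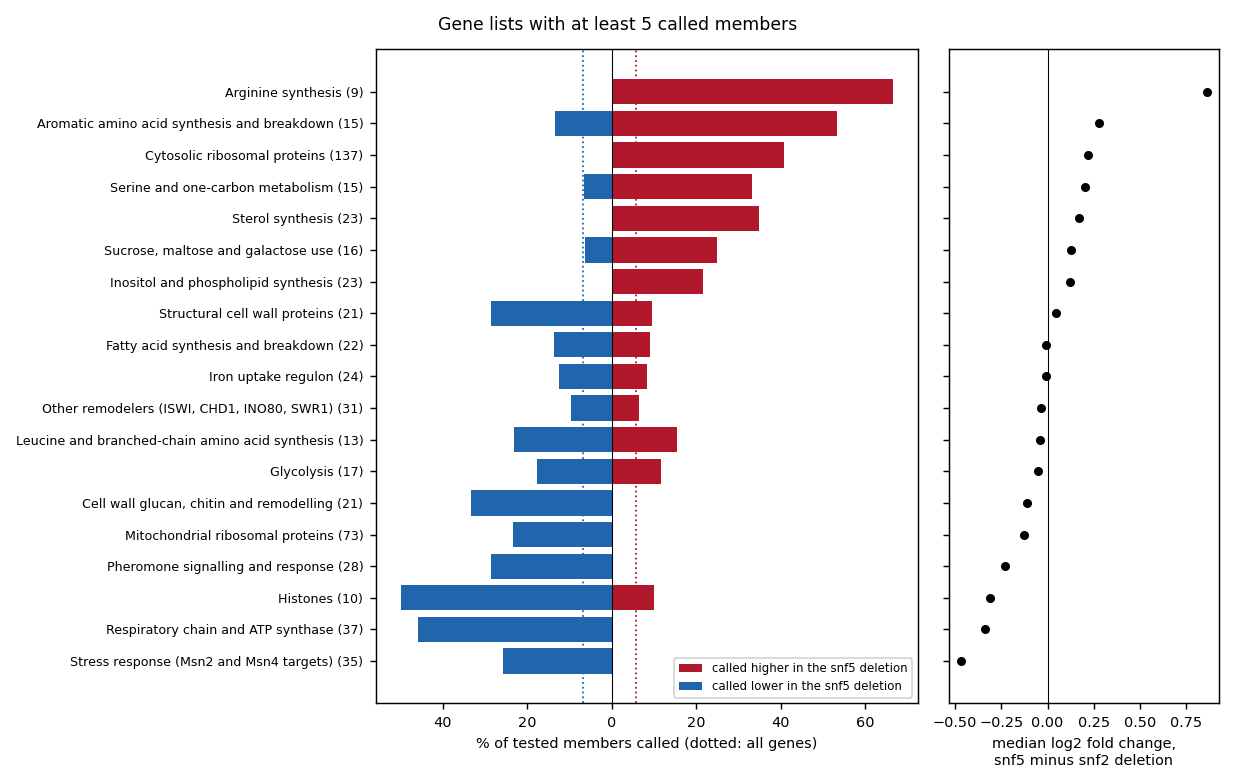
Share called higher (red, right) or lower (blue, left) in the snf5 deletion, for gene lists with at least 5 called members, with tested members in brackets. Lists with fewer called members are not shown. On the right is the median log2 fold change, snf5 minus snf2 deletion, of the same list. Dotted lines mark the shares over all genes, 5.79% higher and 6.68% lower. Arginine synthesis has the highest median (0.86) and the stress list the lowest (-0.47).

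In the other direction, arginine synthesis had the highest median of the lists (0.86), but calls differed between amino acid lists. Of 6 histidine synthesis genes 1 was called higher, and of 10 sulfate uptake and reduction genes 1 was. Of 17 genes of methionine, cysteine and S-adenosylmethionine synthesis 2 were called higher. None of these genes was called lower. Of 13 leucine and branched-chain genes 2 were higher and 3 lower. Cytosolic ribosomal proteins had the most higher calls, 56 of 137. Gcn4 is the activator that yeast uses to switch on amino acid synthesis under starvation, and the arginine genes are among its targets. ARG1 (YOL058W, chromosome XV, 219211 to 220473), argininosuccinate synthetase, had 222, 286 and 588 scaled CPM in the snf5 deletion, against 41.5, 60.1 and 64.8 in the snf2 deletion (2.60 ± 0.30, limma adjusted p = 0.000613). Replicate 3 was the highest of the snf5 libraries. The wild type averaged 85.7 and the swp82 deletion 19.9. ARG3, ornithine carbamoyltransferase, had 19.7, 35.4 and 77.6 scaled CPM in the snf5 deletion, against 7.72, 8.16 and 8.19 in the snf2 deletion (2.11 ± 0.35, limma adjusted p = 0.00426).

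ARG7 was higher by 0.97 ± 0.16 and ARG4, argininosuccinate lyase, by 0.86 ± 0.16. In all 6 of 9 arginine genes were called higher (5.79% over all genes) and 0 lower, with a median of 0.86. ARG8, CPA1 and ARG2 were not called (0.10, 0.33 and -0.09). The summed level of the list was 1011, 1330 and 2194 scaled CPM in the snf5 deletion, against 667, 706 and 698 in the snf2 deletion and 784 to 929 in the wild type, so the snf5 libraries were the 3 highest of these 9. Without 1 library, 4 to 8 of the 9 were called, with 4 when replicate 1 of the snf2 deletion was left out and 8 when replicate 1 of the snf5 deletion was.

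ASN1 and ASN2, the asparagine synthetase genes, were higher by 1.30 ± 0.20 and 0.47 ± 0.06 on the log2 scale. ASN1 had 543, 656 and 1078 scaled CPM in the snf5 deletion, against 264, 313 and 308 in the snf2 deletion (limma adjusted p = 0.00287). The wild type averaged 983, and ASN1 was called lower than the wild type in the snf2 deletion (-1.74) but not in the snf5 deletion (-0.43). PCL5, a cyclin that targets Gcn4 for turnover, had 123, 137 and 267 scaled CPM in the snf5 deletion, against 65.8, 69.9 and 79.6 in the snf2 deletion (1.19 ± 0.23, limma adjusted p = 0.00914). The GCN4 transcript was not called (0.26 ± 0.08, limma adjusted p = 0.0753).

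The promoters of ARG1 and ASN1 are shown for the Gcn4 core site, with TGACTC or its complement GAGTCA in capitals, from the same assembly and window as above.
ARG1, chrXV:218911-219110, plus strand: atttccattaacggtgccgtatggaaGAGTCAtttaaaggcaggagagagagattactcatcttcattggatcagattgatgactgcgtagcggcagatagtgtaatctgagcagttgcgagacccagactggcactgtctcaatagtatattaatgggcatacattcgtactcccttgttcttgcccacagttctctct
ASN1, chrXVI:822320-822519, plus strand: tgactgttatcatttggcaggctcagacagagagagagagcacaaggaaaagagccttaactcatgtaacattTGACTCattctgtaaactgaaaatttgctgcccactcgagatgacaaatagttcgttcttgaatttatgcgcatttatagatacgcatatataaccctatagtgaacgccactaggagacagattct
The match began 274 bases before the start codon in ARG1 and 227 in ASN1. TGACTC was present on either strand in 8 of 9 arginine, 5 of 10 lysine and 5 of 6 histidine synthesis genes. It was also present in 7 of 11 adenine synthesis genes and 9 of 13 leucine and branched-chain genes. Of these lists, the adenine genes had 0 limma calls, the leucine genes 2 higher and 3 lower, and the histidine genes 1 higher. The site was present in 14.3% of promoters of genes called higher, 4.15% of those called lower and 7.9% of all promoters.

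**Figure D4:**
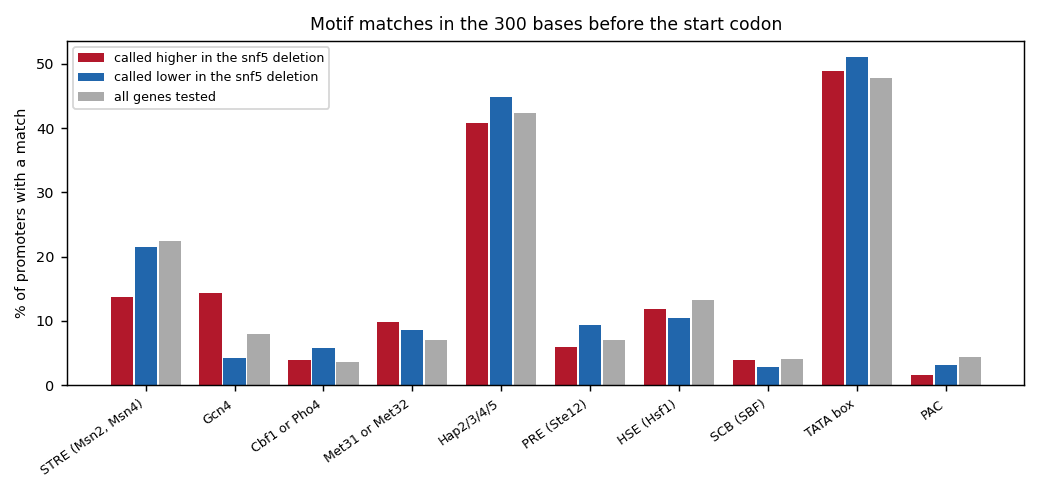
Share of promoters with a match to a motif on either strand in the 300 bases before the start codon. Genes called higher (red) or lower (blue) in the snf5 deletion and all genes tested (grey) are shown. Of the motifs searched, the rarer ones are left out. The Gcn4 site is at 14.3, 4.15 and 7.9%, and the stress element at 13.7, 21.5 and 22.4%.

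Genes of aromatic and lysine synthesis were also among those called higher. ARO1, the enzyme of 5 steps of the shikimate pathway, had 194, 203 and 241 scaled CPM in the snf5 deletion, against 121, 119 and 119 in the snf2 deletion (0.82 ± 0.07, limma adjusted p = 9.65e-05), and the wild type averaged 216. ARO4, TRP1, TRP4 and ARO8 were higher by 0.74, 0.41, 0.40 and 0.33. Of 15 aromatic genes 8 were called higher and 2 lower, beside 5.79% higher and 6.68% lower over all genes. The higher calls were 5 without replicate 1 of the snf2 deletion and 2 with the spread of the 6 libraries alone. The 2 lower ones, ARO9 (-2.20 ± 0.43) and ARO10 (-1.71 ± 0.42), break aromatic amino acids down, and ARO10 lost its call without replicate 3 of the snf5 deletion or replicate 1 or 2 of the snf2 deletion. ARO9 had 37.4, 24.2 and 11.4 scaled CPM in the snf5 deletion, against 133, 107 and 80.1 in the snf2 deletion (limma adjusted p = 0.0087).

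Of 10 lysine synthesis genes 4 were called higher (5.79% over all genes) and 0 lower. LYS20, a homocitrate synthase, was at 0.89 ± 0.26 and LYS1, saccharopine dehydrogenase, at 0.46 ± 0.10. LYS20 lost its call without replicate 2 of the snf5 deletion or any 1 snf2 library, LYS1 without replicate 2 of the snf2 deletion, and without replicate 1 of the snf2 deletion 1 of the 10 was called. Of 15 genes of serine and one-carbon metabolism 5 were higher, among them GLY1, threonine aldolase (0.38 ± 0.06), and SER3 was the 1 lower. The higher calls were 8 without replicate 1 of the snf5 deletion, 2 without replicate 1 of the snf2 deletion and 1 with the spread of the 6 libraries alone. SAM2, an S-adenosylmethionine synthetase, had 325, 337 and 378 scaled CPM in the snf5 deletion, against 207, 225 and 221 in the snf2 deletion (0.67 ± 0.10, limma adjusted p = 0.00307). DIP5, a permease for glutamate and aspartate, had 239, 165 and 165 scaled CPM in the snf5 deletion, against 66.5, 76.6 and 110 in the snf2 deletion (1.17 ± 0.23, limma adjusted p = 0.0087). The wild type averaged 158, near the snf5 libraries. The lysine permease gene LYP1 was higher by 0.39 ± 0.06.

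IMD2 (YHR216W, chromosome VIII, 554396 to 555967), the IMP dehydrogenase of guanine nucleotide synthesis whose gene responds to GTP levels, had 573, 458 and 593 scaled CPM in the snf5 deletion, against 228, 232 and 236 in the snf2 deletion (1.21 ± 0.15, limma adjusted p = 0.00115). The wild type averaged 183, so the snf2 libraries lay near it and the snf5 libraries above both. Its relative IMD3 was higher by 0.54 ± 0.15, a call lost in 5 of the fits without 1 library (all but that without replicate 1 of the snf5 deletion), and the IMD genes are near copies whose reads may be shared. The 11 adenine synthesis genes gave 0 calls with limma and edgeR and 1 with DESeq2. ADE17 alone had an unadjusted limma p under 0.05 (0.84 ± 0.34, limma adjusted p = 0.138).

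Of 137 cytosolic ribosomal protein genes 56 were called higher in the snf5 deletion (5.79% over all genes) and 0 lower. Log2 differences over the list ran from -0.15 to 0.46 with a median of 0.22. In 124 of the 137 genes the 3 snf5 libraries lay above the 3 snf2 libraries, beside 16.2% of all genes. Set against the wild type, the median was -0.10 in the snf5 deletion and -0.33 in the snf2 deletion, with wild-type libraries shared between the 2 comparisons. RPL9B had 278, 292 and 326 scaled CPM in the snf5 deletion, against 224, 213 and 213 in the snf2 deletion (0.46 ± 0.07, limma adjusted p = 0.00256). RPL8A was higher by 0.38 ± 0.07 and RPS26A by 0.32 ± 0.06. Reads of the many near-identical pairs are uncertain. The number called was 71 without replicate 1 of the snf5 deletion, 10 without replicate 3 of the snf2 deletion, and 4 with the spread of the 6 libraries alone. The summed level was 153181, 154068 and 175607 scaled CPM in the snf5 deletion, against 136617, 139776 and 136366 in the snf2 deletion.

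Genes that build ribosomes were examined next. None of 68 ribosome biogenesis genes was called by limma, edgeR or DESeq2, and 0 had an unadjusted limma p under 0.05, with a median of 0.02. TIF6, a factor for the large subunit, had the smallest p (0.22 ± 0.14, limma adjusted p = 0.349). Of 20 genes of RNA polymerases I and III, limma and edgeR called 0 and DESeq2 1, and 1 had an unadjusted limma p under 0.05. The summed biogenesis level was 9180, 13963 and 19299 scaled CPM in the snf5 deletion, against 12157, 14772 and 12661 in the snf2 deletion. The snf5 libraries lay on both sides of the snf2 libraries, with replicate 1 lowest and replicate 3 highest, the reverse of their order in the stress list.

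**Figure D5:**
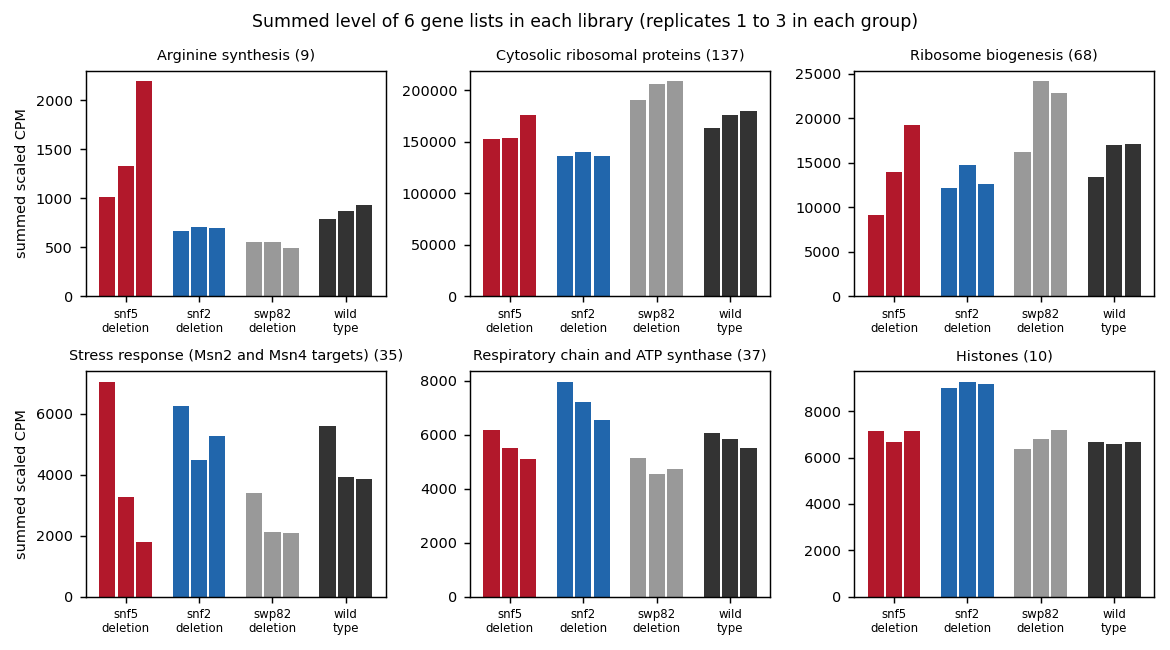
Summed level of 6 gene lists in each library, in scaled CPM, with bars for replicates 1 to 3 of the snf5, snf2 and swp82 deletions and the wild type. Arginine genes sum to 1011, 1330 and 2194 in the snf5 deletion against 667, 706 and 698 in the snf2 deletion, while the stress sums of 7050, 3257 and 1795 and of 6251, 4467 and 5283 overlap.

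Of 23 sterol synthesis genes 8 were called higher (5.79% over all genes) and 0 lower, with a median of 0.17. The count was 11 without replicate 1 of the snf5 deletion, 5 without replicate 1 of the snf2 deletion and 3 with the spread of the 6 libraries alone. ERG12, mevalonate kinase, had 184, 199 and 210 scaled CPM in the snf5 deletion, against 139, 140 and 145 in the snf2 deletion (0.48 ± 0.05, limma adjusted p = 0.000587), and ERG2, a sterol isomerase, was higher by 0.47 ± 0.06. The wild type was near the snf2 deletion in both, at 133 and 448 scaled CPM on average. Of 23 genes of inositol and phospholipid synthesis 5 were higher, led by CHO1, phosphatidylserine synthase (0.32 ± 0.06). That count was 1 without replicate 1 of the snf2 deletion.

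Leucine genes are given beside the LEU2 status of the strains. Leu3 switches these genes on when the leucine precursor isopropylmalate builds up. LEU1, isopropylmalate isomerase, had 250.0, 270 and 475 scaled CPM in the snf5 deletion, against 557, 556 and 578 in the snf2 deletion (-0.83 ± 0.19, limma adjusted p = 0.0193), a call lost without replicate 2 of the snf5 deletion or any 1 snf2 library. OAC1, a mitochondrial carrier for this precursor, had 45.5, 57.3 and 91.5 scaled CPM in the snf5 deletion, against 128, 126 and 124 in the snf2 deletion (-1.01 ± 0.19, limma adjusted p = 0.00754). LEU1 and OAC1 averaged 677 and 156 scaled CPM in the swp82 deletion, which had no LEU2 reads. They averaged 178 and 59.7 in the wild type, which had LEU2 reads. LEU2 status cannot be told apart from the deletion in these genes, and its part was not tested. LEU4 (0.51 ± 0.13) and ILV6 (0.38 ± 0.06) were called higher and the permease gene BAP2 lower (-0.38 ± 0.08), so of 13 genes 2 were higher and 3 lower. LEU4 lost its call without any 1 snf2 library and BAP2 without replicate 1 of the snf2 deletion. The LEU1 promoter is shown for its Leu3 match in capitals, CCGG and CCGG around any 2 bases. The match began 217 bases before the start codon and was found in 9 of 5623 promoters.
LEU1, chrVII:478753-478952, minus strand: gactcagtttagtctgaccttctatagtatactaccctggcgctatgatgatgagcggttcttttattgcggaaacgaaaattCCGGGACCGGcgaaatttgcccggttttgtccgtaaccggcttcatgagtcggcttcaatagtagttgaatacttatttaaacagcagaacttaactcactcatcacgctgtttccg

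Some mating genes were called lower in the snf5 deletion. Of 28 genes of pheromone signalling and response 8 were called lower (6.68% over all genes) and 0 higher, with a median of -0.23. SST2, which turns pheromone signalling off, was lower by 0.32 ± 0.07 and FIG2, a wall adhesin of mating cells, by 0.43 ± 0.10, both lost without replicate 2 of the snf2 deletion, SST2 also without its replicate 1 and FIG2 without its replicate 3. The count was 1 without replicate 2 of the snf2 deletion, 1 with the spread of the 6 libraries alone and 9 without replicate 1 of the snf5 deletion. Of 7 genes specific to MATa cells STE6, the a-factor exporter (-0.25 ± 0.05), and MFA1, an a-factor gene (-0.74 ± 0.18), were lower, MFA1 not without replicate 2 of the snf5 deletion or replicate 2 or 3 of the snf2 deletion. The summed level of the MATa genes was 1905 to 1975 scaled CPM in the snf5 deletion, 2102 to 2262 in the snf2 deletion and 3577 to 3903 in the wild type, and all 12 libraries are labelled mating type a. Of the 4 alpha-specific genes, with sums of 86.3 to 90.3 scaled CPM in the snf5 deletion and 85.5 to 95.2 in the snf2 deletion, MF(ALPHA)2 was called lower (-1.05 ± 0.19), with means of 0.713 scaled CPM in the snf5 deletion and 2.61 in the snf2 deletion. STE3, the a-factor receptor gene of alpha cells, averaged 12.7 scaled CPM in the snf5 deletion, 9.498 in the snf2 deletion and 1.56 in the wild type, and was not called between the deletions. Of 19 meiosis and sporulation genes 2 were called higher and 1 lower, beside 5.79% higher and 6.68% lower over all genes. The lower one, SPS4, had 9.91, 12.9 and 11.9 scaled CPM in the snf5 deletion, against 26.0, 24.8 and 23.3 in the snf2 deletion (-1.04 ± 0.12, limma adjusted p = 0.000604).

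Genes beside the altered loci were examined as well. APM3 (YBR288C, chromosome II, 778012 to 779463), a subunit of a clathrin adaptor complex and the neighbour of SNF5, had 97.7, 102 and 102 scaled CPM in the snf5 deletion, against 52.6, 51.3 and 52.4 in the snf2 deletion and 56.8 on average in the wild type (0.94 ± 0.08, limma adjusted p = 9.65e-05). Its libraries were tight in both deletions and far apart. BSD2 on the other side of SNF5 was not called (-0.06), nor were YOR289W and YPK9 beside SNF2 (0.15 and -0.29). RIM4, an RNA-binding regulator of meiosis beside SNF6, had 3.96, 5.96 and 5.48 scaled CPM in the snf5 deletion, against 10.8, 13.4 and 11.8 in the snf2 deletion (-1.09 ± 0.24, limma adjusted p = 0.0143), a call lost without replicate 2 of the snf2 deletion, while YHL026C on its other side was not called. HIS3, labelled his3delta_1 and with reads in every library, was higher by 0.48 ± 0.12 (limma adjusted p = 0.0278). Its call was lost in 5 of the fits without 1 library, all but that without replicate 1 of the snf5 deletion.

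In 4 further lists limma called 0 genes. Of 24 heat shock chaperones edgeR called 0 and DESeq2 1, and 1 had an unadjusted limma p under 0.05. Of 11 cyclins 1 had an unadjusted limma p under 0.05, of 12 zinc and copper genes 2 had, and edgeR and DESeq2 called 0 in both lists. Of 20 thiamine and pyridoxine genes edgeR and DESeq2 called 2 each, and 4 had an unadjusted limma p under 0.05. SSB2, a ribosome-associated Hsp70 and the chaperone with the smallest p, was at 0.29 ± 0.10 (limma adjusted p = 0.0964), and CLN3, the G1 cyclin, at -0.27 ± 0.09 (limma adjusted p = 0.0796). Of 34 proteasome genes 1, RPN10, was called higher (0.27 ± 0.06), but not without replicate 2 of the snf5 deletion or replicate 2 or 3 of the snf2 deletion. Over all genes the share called higher was 5.79%.

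Promoter letters and position were compared as descriptions. The TATA sequence TATAAA lay in 33 of the 45 promoters of genes called at least 2-fold lower (73.3%), in 51.0% of all called lower, 48.8% of those called higher and 47.8% of all. Genes within 20 kb of a chromosome end made up 3.27% of genes called higher, 1.30% of those called lower and 2.81% of all.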

How the data were processed

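Polyadenylated RNA from 12 yeast cultures, 3 in each of 4 strains grouped by the genotype in the labels, was sequenced. Per the submitters' processing notes, TopHat2 2.0.10, Bowtie2 2.1.0 and edgeR 3.8.6 were used with the sacCer3 build (R64). For the counting tool, its strand setting and the annotation, nothing is stated in the labels or files read here. Values deposited by the authors are a normalised expression signal per gene. Every value was a whole multiple of what 1 read was worth (100% within 0.05 reads), so reads were recovered, and the signal equals counts per total reads and a scaling factor of 0.907 to 1.08. Depth was 9012746 to 12875057 reads, and precision at low genes is limited by these counts.

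Genes at 1 or more in at least 3 libraries (5820, with 115 removed) were tested with limma 3.58.1 (R 4.3.3, eBayes with trend) on log2(value + 1), with all 12 libraries sharing the spread and group as the factor. Benjamini-Hochberg adjusted two-sided p under 0.05 made a call. As the pseudocount is 1, fold changes of low genes are understated. The scripts were tested on simulated data. Alternatives were scaling, pseudocount, filter, the 6 libraries alone, a replicate term, edgeR 4.0.16 and DESeq2 1.42.0 on recovered reads, and leaving out each library. P-values measure the spread between these cultures.

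Named genes were SWI/SNF subunits, LEU2, HIS3, neighbours of the altered loci, up to 15 genes in each direction called with at least a 2-fold change, 10 reads on average and no overlap, and up to 5 called members of each of 58 lists with the smallest p, or, in a list without calls, its member of smallest p. The genes and lists were chosen with earlier results of these data known. Of 5935 identifiers, 5685 matched R64 and 250 did not. Promoters came from RefSeq, with 15 motifs searched. A gene that the rule names is not reported here.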

Additional observations from a re-analysis of the deposited data

How the results depend on the processing

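Of 192 named genes called, 82 kept their call in all 17 alternatives and 0 reversed. With only the 6 libraries of the 2 deletions, 226 genes were called, 82 higher and 144 lower in the snf5 deletion, and 220 of them were among the 726. Without 1 library, the calls ranged from 322 to 909, the higher ones from 140 to 421 and the lower ones from 182 to 488. The highest counts came without replicate 1 of the snf5 deletion and the lowest without replicate 1 of the snf2 deletion; the cause was not tested. A replicate block called 1045 genes, 502 higher and 543 lower. In their deviations from the group means, same-numbered libraries of the 2 deletions correlated at 0.401, 0.170 and -0.104. Libraries of unlike number correlated at -0.564 to 0.520. The main fit did not treat the numbers as pairs, because the labels share only the numbers. Replicate 1 nevertheless had the highest stress sum and the lowest ribosome biogenesis sum in each of the 4 groups. The labels do not say what a number stands for, and a batch shared by number was not tested apart from the block. Other scalings, pseudocounts and filters called 706 to 791, edgeR 728 and DESeq2 921. Scaling moved the median of all genes by at most 0.05 on the log2 scale. Calls of low genes are limited by depth.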

Other observations

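Further genes differed at low levels or in small lists. Of 19 genes of mother-daughter separation and mitotic exit 4 were called higher (5.79% over all genes) and 0 lower. The higher calls were 7 without replicate 1 and 2 without replicate 2 of the snf5 deletion. RME1, a repressor of meiosis, had 54.7, 48.8 and 42.3 scaled CPM in the snf5 deletion, against 31.0, 29.0 and 30.5 in the snf2 deletion (0.66 ± 0.11, limma adjusted p = 0.00396). DSE4, a glucanase that separates daughter cells, was higher by 0.45 ± 0.07. Of 14 NAD and biotin genes the NAD synthesis genes BNA1 and BNA6 were higher, both by 0.40 on the log2 scale. QDR2, a multidrug transporter gene, had 2.08, 1.74 and 2.23 scaled CPM in the snf5 deletion, against 3.78, 3.71 and 4.10 in the snf2 deletion, while the wild type averaged 125. YRO2, a membrane protein gene, was lower by 1.30 ± 0.20, with means far below the wild type's 74.5 in both deletions. The libraries of the 2 deletions did not overlap in any of these genes.

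Of 24 iron uptake genes 2 were called higher and 3 lower, beside 5.79% higher and 6.68% lower over all genes. No call of the 5 was kept in every fit without 1 library. FIT2, a wall protein that retains siderophore iron, was lower by 0.71 ± 0.17 (limma adjusted p = 0.0212), not called without replicate 2 of the snf5 deletion or replicate 1 or 3 of the snf2 deletion.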
